A study of Drosophila melanogaster with 15 samples.

Results

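The chemoreceptor genes of Drosophila melanogaster were followed on whole-embryo arrays, as genes that a young embryo would not be thought to use. They were taken as every probe set that the array's platform table pairs with exactly 1 gene symbol made of Gr, Or or Ir and a digit, with no filter on signal. This gave 185 probe sets for 165 genes, of 18952 probe sets on the array: 63 probe sets of the gustatory receptor (Gr) family, 62 of the odorant receptor (Or) family and 60 of the ionotropic receptor (Ir) family. The rule used names and no measured value, though the members were chosen with earlier results of these data known. The 183 array control probe sets were left out of the tests, so that the members were read against 18769 probe sets in all.

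The embryos were of the w[1118] strain and 3-4 hours old when frozen. 12 of the 15 samples had received 500 µGy of gamma rays, delivered at 22.4 mGy per hour, 5, 30, 60 or 90 min before freezing, and 3 control samples had not. Each of the 5 groups had biological replicates lettered A, B and C on 1 array each, and each sample was a pool of eggs from several laying bottles held at 23 °C. Every group therefore shared the strain and the age at freezing, while the age at irradiation and the time since irradiation cannot be told apart. The comparison addresses how a small gamma-ray dose alters embryonic RNA levels, and the chemoreceptor genes show what the same comparison gives on dim probe sets.

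Chemoreceptors are membrane proteins that the sensory neurons of larvae and adult flies use to detect odours, tastes, humidity and temperature. Odorant receptors form ion channels together with the co-receptor Orco, ionotropic receptors descend from glutamate receptor channels and work with co-receptors such as Ir25a and Ir8a, and gustatory receptors detect sugars, bitter compounds and carbon dioxide. Many are known from small numbers of neurons in the antenna, palps, mouthparts, legs or larval head organs, which differentiate long after gastrulation.

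The deposited values are MAS5 intensities, in which the probes of a probe set are summarised into a single number on a linear scale. They were compared as log2(intensity + 1), which understates the changes of dim probe sets, and such values near the background of an array are noisy. A level is the mean over the 15 arrays on this log2 scale, and a difference is irradiated minus control on the same scale. Levels of different probe sets depend on their probes, so their order is an order of signal and not of transcript amount. In a whole embryo, fewer cells of a type and less RNA per cell cannot be told apart.

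The labelled age was checked on genes of known embryonic use. All 16 measured genes of blastoderm and gastrula patterning lay between 8.07 and 13.6, with a median level of 10.01, and 8 measured maternal RNAs had a median of 9.97. The 4 measured genes listed for late embryo muscle were also bright, from 7.32 to 10.5 with a median of 8.74. The check therefore does not show that genes listed for later stages were silent. In the limma F test between letters, also given for the receptors, 13 of 16 patterning genes and 4 of 8 maternal RNAs were called. The pair-rule gene ftz was among them, with intensities from 145 to 1607. Over all probe sets 27.3% were called between letters. Among probe sets other than the chemoreceptors, 60.0% were called at levels from 8 to 10 and 71.4% above 10, the range of these genes. The median difference of the maternal RNAs in the mean of the irradiated groups was -0.83, with 0 called. Among the 9 measured neuronal genes the median was 4.18, and 2 of them, the neuronal RNA-binding protein gene elav at 7.46 among these, lay above 4.74, the level that 95% of the chemoreceptors stayed under. The synaptic scaffold gene brp was at 4.14. Orco itself, which is no member because of its symbol, had a level of 4.60, with intensities from 7.62 to 53.7.

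The chemoreceptors were dim in all 3 families. Their median level was 3.03, an intensity of 7.16, against 4.80 over all 18769 probe sets and 6.11 over the other probe sets with 1 symbol. The middle range of the members, from the lower to the upper quartile, ran from 2.49 to 3.81. The family medians were 3.19 for Gr, 3.09 for Or and 2.90 for Ir. Of the 185 members, 177 lay below the median of all probe sets, 114 below its lower quartile and 0 above its upper quartile. Of the 2775 single array values of the members, 56.58% were under an intensity of 10, and 34 values, from 5 genes, were above 100.

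**Figure D1:**
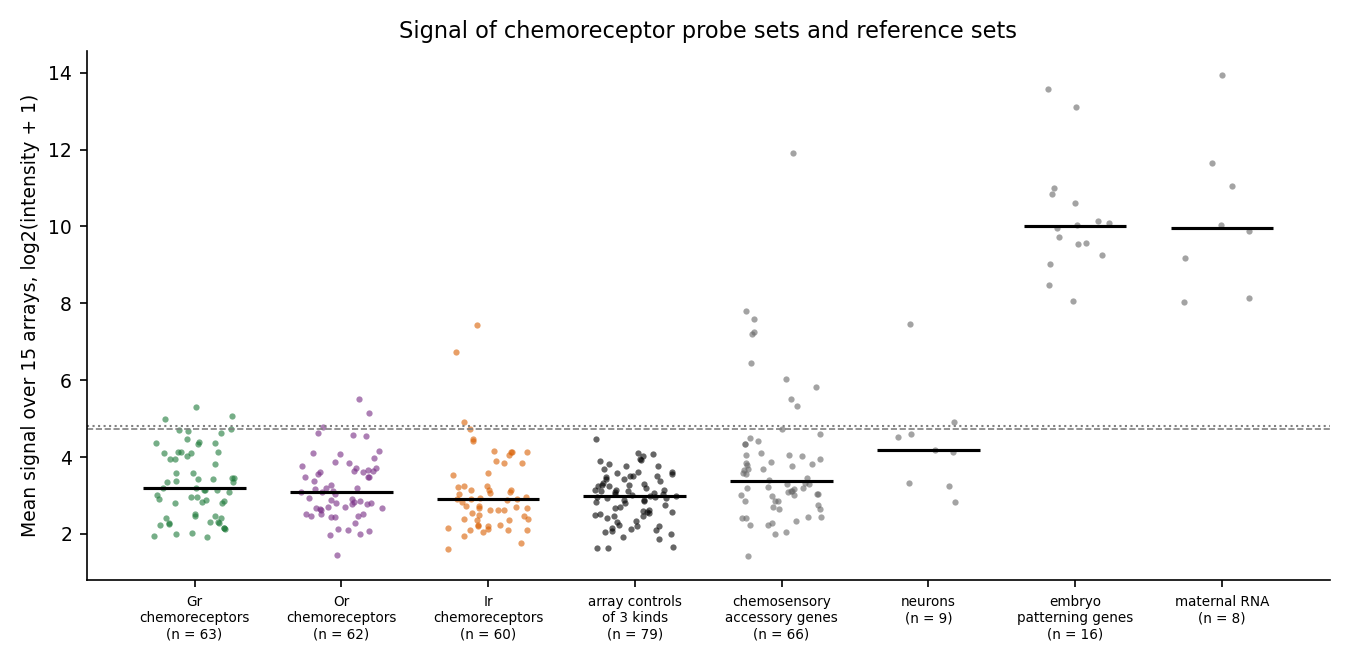
Mean signal over 15 arrays, log2(intensity + 1), of each probe set (points) and the median of each set (bars), for the 3 receptor families, 79 array controls and 4 lists of fly genes. The dashed line is the level that 95% of the chemoreceptors stayed under (4.74) and the dotted line the median of all probe sets (4.80). Of the 185 chemoreceptor probe sets 165 lie within the range of the array controls, 18 above it and 2 below, and all 16 patterning genes lie above both lines.

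Array controls gave a further reference for low signal. They were 17 probe sets for artificial tag sequences, 12 for Bacillus transcripts and 50 named by protein accessions, whose species the files do not name and for which added RNA is not described in the sources used here. Their median levels were 3.31, 2.67 and 2.94, and together they ran from 1.63 to 4.48. Of the 185 chemoreceptor probe sets, 165 lay inside this range, 2 below it and 18 above it. The level of 4.74, under which 95% of the chemoreceptors lay, is an intensity of 25.6. Of the other 18584 probe sets, 51.08% lay above that level.

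The co-receptors of the Ir family showed no common level. Ir25a, which most Ir complexes need, had a level of 4.90, and Ir8a, the partner of acid-sensing receptors, 4.72. Ir76b, the partner of amine and taste receptors, was at 3.15, and the 2 probe sets of Ir93a, a co-receptor for humidity and temperature, were at 2.71 and 1.75. Ir25a read 26.3, 18.2 and 31.4 in controls A, B and C, 31.1, 39.9 and 68.9 at 5 min, 4.06, 29.8 and 47.1 at 30 min, 20.9, 31.8 and 49.0 at 60 min, with 20.2, 46.5 and 30.4 at 90 min. Its lowest and highest values both came from irradiated arrays, and every irradiated group overlapped the controls. The mean difference of these 5 probe sets lay between -0.26 and 0.32, and none passed the test.

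Among receptors for temperature, humidity and acid, Ir68a, which detects moist air, was bright at 6.74. Ir64a, an acid receptor, had a level of 4.43. Ir40a, which detects dry air, had 2 probe sets at 4.15 and 2.24, and Ir21a, a cooling receptor, had 2 at 3.89 and 3.54. Of the odour receptors of this family named here, Ir84a, tuned to food-derived aromatic odours, was at 2.47, Ir75a, an acetic acid receptor, at 2.05, and Ir92a, an amine and ammonia receptor, at 3.85 and 2.16. Of these 10 probe sets, 7 had a positive mean difference, from 0.06 to 1.33, and 0 passed the test.

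The carbon dioxide receptor is made of Gr21a and Gr63a, which had levels of 3.46 and 2.32. Gr63a was among the steadiest members, with intensities from 1.60 to 8.01 over the 15 arrays and a standard deviation (SD) within groups of 0.43. Gr21a ran from 0.835 to 33.6 with an SD of 1.42. Probe sets shared by 2 sugar receptor genes are no members and were dim to middling, at 3.78 and 2.30 for Gr64b with Gr64c and 2.68 for Gr64d with Gr64e. Without these, the 5 sugar receptors with a probe set of their own had a median level of 4.36, above the other Gr groups named here. These 5 were Gr5a, a trehalose receptor, at 4.35, Gr61a at 4.36, the fructose receptor Gr43a at 4.38, the shared subunit Gr64f at 4.38 and Gr64a at 3.44.

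Bitter receptors were dimmer, with a median level of 2.53 over 5 probe sets. The widely shared bitter subunits Gr32a, Gr33a and Gr66a had levels of 3.02, 2.53 and 3.15, and Gr93a, needed for caffeine taste, had 2 probe sets at 2.42 and 2.26. The pair Gr28a and Gr28b, the latter known from heat and light sensing, stood at 4.13 and 4.12. Averaged over the irradiated times, 0 of these sugar, bitter, carbon dioxide and Gr28 probe sets passed the test.

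In the Or family the pheromone receptors Or47b, Or65a, Or67d and Or88a had levels of 2.67, 2.47, 3.09 and 3.65. Or56a, the geosmin receptor, was at 2.13. The food odour receptors were spread more widely: Or43b was at 5.51, Or22a at 4.77, Or42a at 3.72, Or59b at 2.81 and Or42b at 2.68. Or22a read 18.2, 39.2 and 42.9 in controls A, B and C, 34.4, 73.5 and 35.7 at 5 min, 20.1, 65.1 and 2.29 at 30 min, 34.7, 47.2 and 18.9 at 60 min, with 20.3, 38.8 and 7.0 at 90 min. The B array was the highest of its group at all 4 irradiated times, and the groups overlapped.

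The brightest members were Ir76a, an antennal receptor for amines, at 7.44, then Ir68a, Or43b and the gustatory receptor Gr59a at 5.31. Ir76a and Ir68a lay well above Ir25a at 4.90, the next of the Ir family, while the Gr and Or families ran on without such a gap. Or43a followed at 5.15, Gr59e at 5.07 and Gr59d at 4.99. At the other end stood Or85a at 1.45, Ir48c at 1.60, a probe set of Ir93a at 1.75 and Gr58c at 1.93. Or85a read between 0.614 and 5.98 on the 15 arrays.

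Ir76a read 278, 193 and 178 in controls A, B and C, 276, 139 and 111 at 5 min, 291, 172 and 115 at 30 min, 256, 135 and 104 at 60 min, with 280.1, 98.3 and 161 at 90 min. The A array was the brightest in every group, and the A arrays of all 5 groups covered only 256 to 291. Ir68a read 101, 127 and 45.1 in controls, 108, 209 and 80.4 at 5 min, 112, 239.9 and 65.6 at 30 min, 122, 178 and 77.0 at 60 min, with 111, 66.9 and 102 at 90 min. Its B array was the highest in every group but the 90 min group, where it was the lowest.

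Or43b read 126, 117 and 19.8 in controls, 79.4, 108 and 4.74 at 5 min, 114, 137 and 2.56 at 30 min, 164, 89.9 and 10.1 at 60 min, with 137, 12.5 and 25.3 at 90 min. The A arrays were high in every group and the C arrays low, and the B arrays were high except at 90 min. Gr59a read 2.29, 23.6 and 33.9 in controls, 11.4, 70.2 and 78.6 at 5 min, 37.7, 68.6 and 88.9 at 30 min, 32.5, 56.6 and 101 at 60 min, with 17.4, 40.8 and 128 at 90 min. It ran the other way, with A lowest and C highest in all 5 groups.

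These orders by letter were tested in a fit with group and replicate letter as terms (limma, moderated F test of any difference between letters, Benjamini-Hochberg adjustment over all probe sets, threshold 0.05). Over all probe sets, 5123 were called, or 27.3%, and 36.6% had an unadjusted p under 0.05. Of the chemoreceptors 4 were called, or 2.16%, and 17, or 9.19%, had an unadjusted p under 0.05. Called or not, 76.2% of the members were higher in C than in A, against 58.4% of all probe sets. The median difference between C and A was 0.46 for members and 0.21 for all. The other probe sets at or below the level of 4.74 had 3.67% called and the brighter ones 50.4%, so the share among chemoreceptors lay near that of other dim probe sets and far below that of bright ones. The member count moved with single arrays: it was 11 (5.95%) without 90 min B, 9 (4.86%) without 90 min C and 7 (3.78%) without control C or without 30 min C, when all probe sets had 6188, 5361, 4107 and 3931 called. Those 4 fits had the highest member counts of the fits that left out an array. In them other dim probe sets had 4.55%, 3.83%, 2.60% and 2.34% called, each below the share of the members. In most of the other fits that left out an array, the share of the members lay below that of other dim probe sets, as with all arrays. The spike-ins also lay apart by letter, at 11.05 to 11.17 in A arrays, 10.94 to 11.80 in B and 11.63 to 11.97 in C. Their part in the letter results was not tested.

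The 4 members called were Or43b, Gr59a, Ir76a and Gr47a. Or43b was 3.54 ± 0.68 (SE) lower in C than in A (limma adjusted p = 0.00288), and Gr59a was 2.34 ± 0.47 higher in C than in A (limma adjusted p = 0.00428). Ir76a was 1.07 ± 0.27 lower in C and 0.94 ± 0.27 lower in B than in A (limma adjusted p = 0.0139). Gr47a, a dim gustatory receptor at 3.57, was 1.75 ± 0.60 lower in B than in A (limma adjusted p = 0.019). Gr47a read 27.1, 1.09 and 32.4 in controls A, B and C, 15.6, 7.91 and 32.1 at 5 min, 20.3, 3.86 and 6.84 at 30 min, 5.94, 3.31 and 26.2 at 60 min, with 12.1, 4.4 and 29.5 at 90 min, with B lowest in every group. Or43b and Gr59a were called in each of the 15 fits that left out 1 array, Gr47a in 14 and Ir76a in 12. Without an A array of the 5, 60 or 90 min group the adjusted p of Ir76a was 0.052, 0.059 and 0.0556, with quantile normalization it was 0.0836, and without control B that of Gr47a was 0.078.

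**Figure D2:**
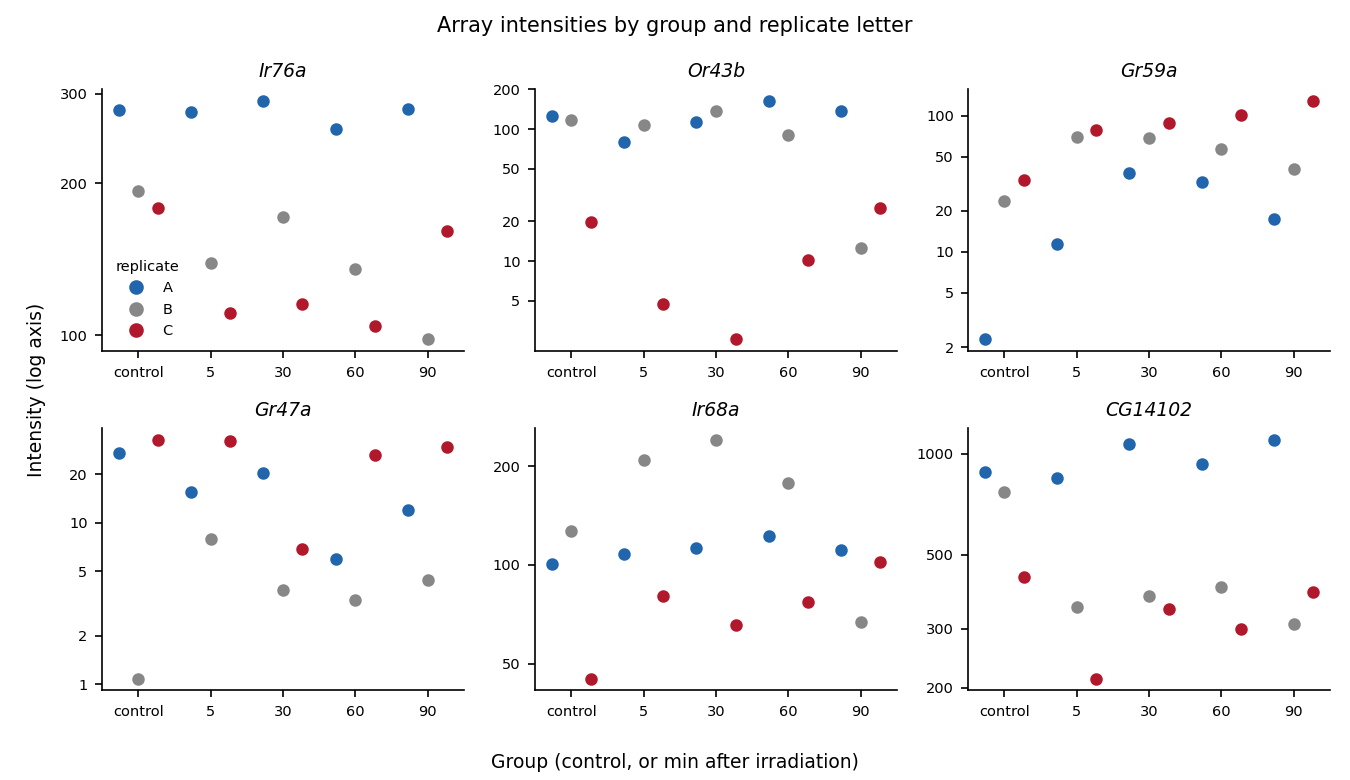
Intensity on a log axis in each array, by group (control, or 5, 30, 60 and 90 min after irradiation) and replicate letter (colour), for the 4 chemoreceptors called between letters, for Ir68a and for CG14102, a gene that overlaps Ir76a. In all 5 groups the A array lies highest for Ir76a and lowest for Gr59a, and the B array lies lowest for Gr47a.

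Of the 10 member probe sets above 4.74, 2 belong to genes that overlap another gene, Ir76a and Or43b. In the RefSeq annotation of assembly Release 6, used here for names and neighbours only, 45 of the 165 genes overlap another gene. Their 53 probe sets had a median level of 2.94, against 3.08 for the 132 probe sets that overlap none. Ir76a overlaps CG14102, whose level was 8.99, and Or43b overlaps Cul1, a ubiquitin ligase scaffold, at 13.4. In all 11 member genes, with 15 probe sets, overlap a gene with a level above 8, and 2 of these probe sets, those of Ir76a and Or43b, lay above 4.74. Gr94a, which overlaps the tumour suppressor gene p53 at 10.8, had a level of 2.47, and Gr39a, which overlaps Mondo at 10.4, had one probe set at 4.13 and others below it. Ir68a overlaps no other gene.

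CG14102 differed between letters in the same direction as Ir76a, by -1.56 ± 0.24 between C and A (limma adjusted p = 0.000775). The other overlapping genes with a level above 8, apart from Cul1 and p53, were also lower in C than in A. Mondo was at -2.64 and CG12121 at -1.80, while the brightest Gr39a probe set and Gr8a, which overlap them, were at 0.74 and 1.21. Of the members that overlap these lower genes, only Ir76a and Gr32a, at -0.31, were lower in C. Cul1 did not pass, at 0.28 ± 0.12 (limma adjusted p = 0.13), against the -3.54 of Or43b. The strand and position of the probes are not in the sources used here. The part of an overlapping gene in the signal of Ir76a or Or43b was not tested. The Ir76a probe set is also the only member whose identifier ends in _s_at, the suffix that the array's maker uses for probes shared by several transcripts, which can belong to different genes.

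The spread between replicates was wide. The median SD within groups was 1.08 on the log2 scale for chemoreceptors and 0.94 for all probe sets, and the median SD of the members on the linear scale was 9.18 intensity units. Of the members, 87.03% varied over 10-fold between their lowest and highest array, against 53.41% of all probe sets. The median ratio of the highest to the lowest value was 19.6 for members and 11.1 for all.

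Between levels 2 and 5 the median spread of the members lay close to that of other probe sets with the same level. Between levels 2 and 3, the 81 members had a median SD of 1.09 and 3070 other probe sets 1.02. Between 3 and 4, the 57 members had 1.14 and the others 1.17, and between 4 and 5 the 32 members had 0.95 and the others 1.06. Between 5 and 6, the 4 members had a median SD of 1.23, the lowest of them 1.15, against 0.89 for 1302 others, and between 6 and 8 the 2 members had 0.67 against 0.84. Above 10, where no chemoreceptor lay, the median SD was 0.51. Brighter probe sets had less spread. Below a level of 2 it was lower again, at 0.77 for 9 members and 0.74 for others, where adding 1 before taking logs compresses small values.

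**Figure D3:**
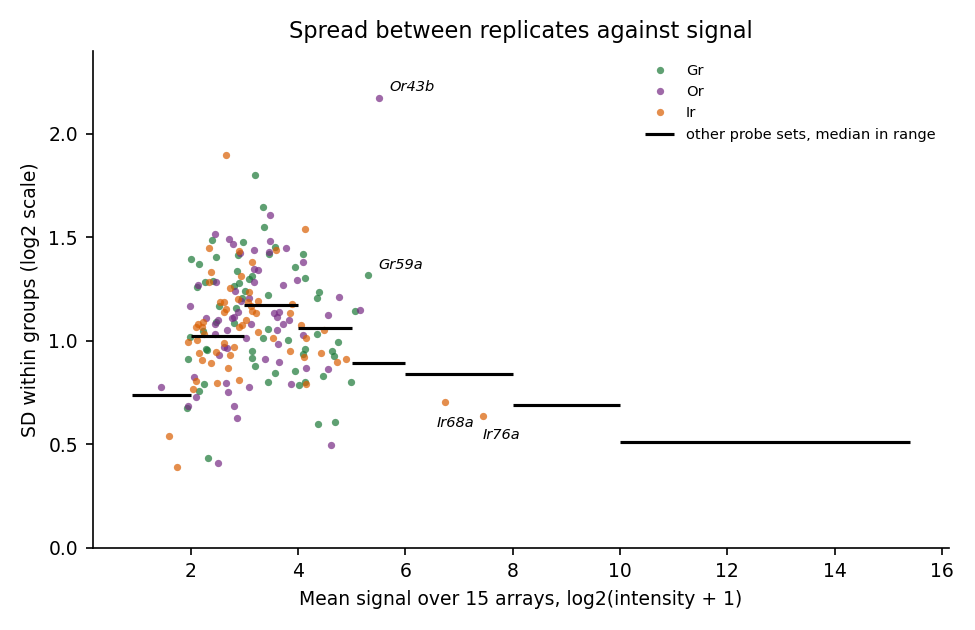
SD within groups on the log2 scale against mean signal over 15 arrays, log2(intensity + 1), for 185 chemoreceptor probe sets (points, by family) and the median SD of all other probe sets in ranges of signal (bars). Most chemoreceptors scatter around the bars between 0.74 and 1.17, and Or43b lies highest at 2.17.

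Single members differed widely in spread. The largest SD in each family were 2.17 for Or43b, 1.89 for Ir67c and 1.80 for Gr93b. Ir67c read 6.23, 2.07 and 32.9 in controls A, B and C, 25.2, 0.761 and 36.2 at 5 min, 0.978, 20.4 and 1.11 at 30 min, 10.9, 1.66 and 1.2 at 60 min, with 1.88, 1.08 and 21.3 at 90 min. High and low values thus followed neither group nor letter. The smallest SD were 0.39 for a probe set of Ir93a, 0.41 for one of Or46a and 0.43 for Gr63a. Or59a combined a level of 4.62 with an SD of 0.49 and stayed between 11.5 and 39.3 on all arrays.

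Arrays resembled each other only loosely in their chemoreceptors. Across the 185 members, the median Pearson correlation between 2 arrays was 0.405 over 105 pairs, from 0.201 to 0.575. It was 0.417 for pairs of the same letter and 0.405 for pairs of the same group. Over all probe sets it was 0.916, and over the 79 array controls 0.190. Without Ir76a, Ir68a and Or43b the median over members was 0.344. These correlations run across probe sets, which are not independent replicates. They also depend on the range of levels, which was narrower for the members than for all probe sets. No set of other dim fly probe sets was correlated in this way.

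The median chemoreceptor signal of an array ran from 2.33 in control A to 3.41 in 30 min C. Its group means were 2.73 ± 0.41 (SD, n = 3) in controls, 3.06 ± 0.25 at 5 min, 3.14 ± 0.25 at 30 min, 3.14 ± 0.12 at 60 min and 3.03 ± 0.25 at 90 min. Control C, at 3.16, lay inside the range of the irradiated arrays, while controls A and B, at 2.33 and 2.69, were below all 12 of them. By letter the means were 2.83 for A, 2.98 for B and 3.25 for C.

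The array controls moved over a similar range, from 2.25 to 3.41, with 2.58 ± 0.24 (SD, n = 3) in the untreated group and 3.26 ± 0.14 at 90 min. The median of all probe sets moved less, from 4.93 to 5.50. The hybridization spike-ins, control transcripts added before hybridization, ran from 10.9 to 11.97 on the log2 scale. With the spike-in level as a covariate, an alternative added after seeing the data, the median difference of the members was 0.11, 0.27, 0.16 and 0.23 at 5, 30, 60 and 90 min and 0.16 averaged over the times, with 0 members called.

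**Figure D4:**
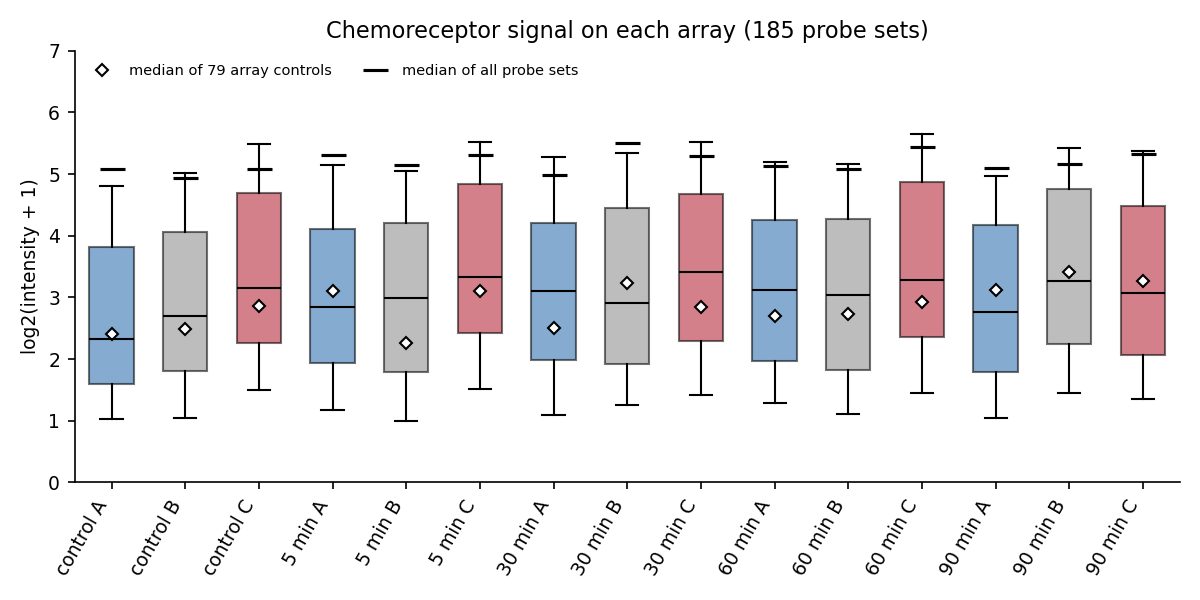
log2(intensity + 1) of the 185 chemoreceptor probe sets on each array (boxes from quartile to quartile with the median, whiskers at the 5th and the 95th percentile, coloured by replicate letter), with the medians of 79 array controls (diamonds) and of all probe sets (dashes). The chemoreceptor median runs from 2.33 in control A to 3.41 in 30 min C, below the median of all probe sets on every array.

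No chemoreceptor was called between irradiated and control embryos. In the fit with 5 groups (limma, all 15 arrays, Benjamini-Hochberg adjustment over 18769 probe sets, threshold 0.05), 0 members and 0 of all probe sets (0%) passed at 5, 30, 60 or 90 min, in the mean of the irradiated groups or in the F test of any difference between groups. The 5 comparisons share the 3 control arrays. At 5, 30, 60 and 90 min, 10, 15, 11 and 8 members had an unadjusted p under 0.05, or 5.41%, 8.11%, 5.95% and 4.32%, against 3.58%, 2.70%, 3.40% and 2.69% of all probe sets. For the mean it was 10 members, 5.41% against 3.89%, and with the letters as a replicate block 16 members, 8.65% against 10.4%, so that the order turned, and for the F test without the block 7 members, 3.78% against 2.24%. Other probe sets as dim as the members had 5.08%, 4.44%, 4.91% and 4.59% at the 4 times and 4.53% in the mean.

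Large apparent differences were common among the chemoreceptors. A difference of at least 1 on the log2 scale in the higher direction was seen in 40, 46, 39 and 42 members at 5, 30, 60 and 90 min, or 21.6%, 24.9%, 21.1% and 22.7%, against 12.1%, 11.5%, 11.8% and 11.2% of all probe sets. In the lower direction it was seen in 22, 19, 16 and 15 members, or 11.9%, 10.3%, 8.65% and 8.11%, against 6.77%, 5.26%, 6.87% and 6.88%. In the mean of the irradiated groups 31 members (16.8%) were higher and 17 (9.19%) lower by this much, against 8.35% and 3.43%. Among other probe sets no brighter than 4.74, 17.1% to 17.5% were higher by this much at each time, and 7.73% to 9.03% lower.

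Groups of 3 arrays that did not overlap were also seen without a call. All 3 irradiated arrays lay above all 3 controls for 14, 17, 10 and 8 members at 5, 30, 60 and 90 min, or 7.57%, 9.19%, 5.41% and 4.32%, against 5.87%, 4.02%, 5.14% and 4.24% of all probe sets. They lay below all controls for 6, 6, 8 and 7 members, or 3.24%, 3.24%, 4.32% and 3.78%, against 2.56%, 1.43%, 2.09% and 1.52%. With all 12 irradiated arrays against the 3 controls, 0 members did not overlap in either direction, against 0.229% of all probe sets higher and 0.032% lower.

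The 95% interval of a difference at 1 time reached 1.81 to either side for the median member, and 1.24 for probe sets brighter than 4.74. For the mean of the irradiated groups the figures were 1.43 and 0.98. Of the members' differences at 5, 30, 60 and 90 min, 95% were under 1.93, 2.02, 1.91 and 1.78 in size, close to that reach. In size the median difference at 5 min was 0.70 for members, 0.60 for other dim probe sets and 0.35 for brighter ones.

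**Figure D5:**
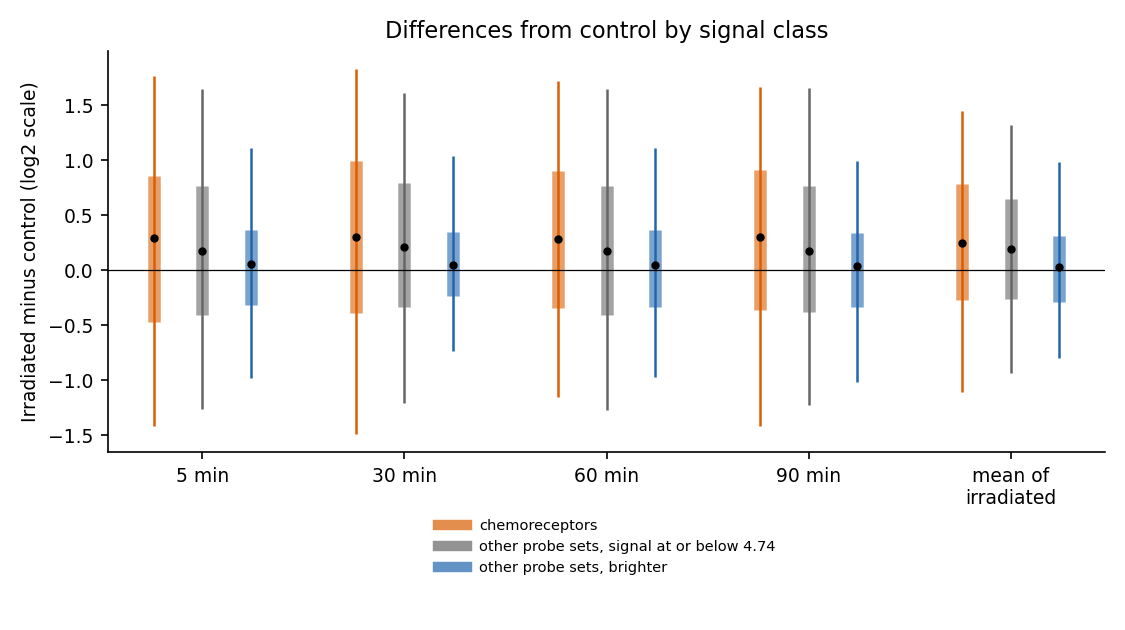
Differences from control on the log2 scale at each time and in the mean of the irradiated groups, for 185 chemoreceptors, 9092 other probe sets with a signal at or below 4.74 and 9492 brighter ones. Dots are medians, thick bars run from quartile to quartile and thin bars from the 5th to the 95th percentile. Chemoreceptors and other dim probe sets spread over a similar width, wider than the brighter probe sets.

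Without a filter on signal the differences leaned to the higher side. The median over members was 0.29, 0.30, 0.28 and 0.30 at 5, 30, 60 and 90 min and 0.25 in the mean of the irradiated groups, against 0.10, 0.10, 0.09, 0.09 and 0.09 over all probe sets. Positive differences made up 60.5%, 58.9%, 62.2%, 60.5% and 64.3% of the members and 56.1%, 57.7%, 55.8%, 55.6% and 57.1% of all probe sets. With quantile normalization, which gives all arrays the same distribution, the medians over members were 0.07, 0.14, 0.08, 0.10 and 0.06. The filter at the 40th percentile leaves 37 members. With it the medians were -0.11 at 5 min, -0.028 at 30 min and -0.11 in the mean, but stayed positive at 60 and 90 min. Without 5 min C the unfiltered median at 5 min was -0.046. Without control A the median in the mean of the irradiated groups was 0.11, and without control C it was 0.48. Other dim probe sets leaned the same way, with medians from 0.17 to 0.21.

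Or35a, a broadly tuned odour receptor of coeloconic sensilla, had the smallest p in the higher direction in the mean of the irradiated groups, at 1.84 ± 0.57 (SE, limma adjusted p = 0.976). That probe set read 2.79, 3.49 and 7.46 in controls A, B and C, 11.2, 21.8 and 28.1 at 5 min, 39.7, 10.6 and 15.3 at 30 min, 13.9, 15.8 and 27.7 at 60 min, with 20.3, 5.88 and 28 at 90 min. All irradiated arrays but 90 min B lay above all controls. The other Or35a probe sets did not show this: their differences were 0.50 ± 0.65 and 0.04 ± 0.48, and the dimmer of these read 2.54, 1.51 and 5.15 in controls and between 1.23 and 10.8 in irradiated arrays.

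Gr47b followed in the same direction, at 1.95 ± 0.65, and the sugar receptor Gr64a at 1.57 ± 0.57 (limma adjusted p = 0.976 for both). Gr47b read 4.37, 3.98 and 3.02 in controls, 35.2, 25.7 and 15.1 at 5 min, 21.4, 36.2 and 20.2 at 30 min, 20.5, 37.6 and 4.4 at 60 min, with 28.8, 10.4 and 2.65 at 90 min. All irradiated arrays of Gr47b but 90 min C lay above all controls, 60 min C by a small margin. Gr64a read 6.24, 3.74 and 1.74 in controls and 19.5, 21 and 28.7 at 30 min, the only time at which all 3 of its arrays lay above all controls.

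In the lower direction Ir60e had the smallest p, at -1.92 ± 0.56 in the mean and -2.87 ± 0.71 at 60 min (limma adjusted p = 0.976 and 1.0). Ir60e read 20, 15.5 and 28.8 in controls, 8.35, 15.7 and 6.26 at 5 min, 2.89, 18.1 and 1.95 at 30 min, 2.48, 1.08 and 2.67 at 60 min, with 6.53, 6.52 and 2.49 at 90 min. The 60 and 90 min arrays all lay below the controls, while the B arrays at 5 and 30 min did not. Next came Or59c, a receptor of the maxillary palp, at -1.68 ± 0.67, and the bitter receptor Gr32a at -1.73 ± 0.75 (limma adjusted p = 0.976 for both). The controls of Or59c read 29.5, 25.2 and 35.8, and its irradiated arrays ran from 1.53 to 30.8, with 30 min C inside the range of the controls.

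The members with the smallest p changed from time to time, and none passed. At 5 min, Gr23a (2.64 ± 0.84), Gr47b and Or35a stood on the higher side, and Gr43a (-1.83 ± 0.63), Or30a (-2.37 ± 0.88) and Ir67a (-2.05 ± 0.82) on the lower. At 30 min the members were Ir56b (2.34 ± 0.68), Gr64a (2.39 ± 0.72) and Ir94h (2.59 ± 0.79) on the higher side, and Gr28a (-2.20 ± 0.73), Ir60e and Ir41a (-2.43 ± 0.99) on the lower. The limma adjusted p was 1.0 for each of these.

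At 60 min Gr89a (2.14 ± 0.72), Gr66a (2.06 ± 0.77) and Or35a stood on the higher side, and Ir60e, Gr32a (-2.20 ± 0.94) and Or67c (-2.03 ± 0.94) on the lower, with a limma adjusted p of 1.0. At 90 min Ir10a (2.29 ± 0.87), Gr98a (1.79 ± 0.76) and Or35a stood on the higher side, and Ir60e, Or59c (-2.06 ± 0.85) and Gr33a (-1.92 ± 0.89) on the lower, with a limma adjusted p of 0.999.

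Gr43a and Ir56b stood out at a single time without passing the test. Gr43a read 16.3, 21.0 and 23.0 in controls, 3.29, 8.33 and 4.09 at 5 min, 15.0, 46.0 and 44.1 at 30 min, 29.6, 38.4 and 33.0 at 60 min, with 20, 50.2 and 19.7 at 90 min. The 5 min arrays lay below all others, and in the mean its difference was -0.01 ± 0.50. Ir56b read 1.22, 11.7 and 2.14 in controls and 12.7, 31.7 and 24.5 at 30 min, which lay above all controls, and between 1.2 and 5.19 in the arrays of the other times.

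Genes with more than 1 probe set let the same transcript be read more than once. There were 12 such genes with 32 probe sets, and some probe sets read different isoforms, as Gr23a and Gr39a are known to make several proteins by alternative first exons. Over the 15 arrays the median correlation between probe sets of a gene was 0.131 over 31 pairs, from -0.373 for Or69a to 0.565 for Ir21a. The sign of the mean difference was shared in 7 genes and mixed in 5, which were Gr23a, Gr39a, Ir40a, Ir41a and Or46a. For Gr23a the probe set with the difference of 2.64 at 5 min read 0.633, 2.53 and 1.07 in controls and 16.3, 24 and 5.66 at 5 min. The brightest Gr23a probe set read 29.2, 22.0 and 25 in controls and 17.2, 24 and 1.92 at 5 min, and in the mean their differences were 1.60 ± 0.67 and -0.11 ± 0.63. The probe sets of Ir21a, whose correlation was highest, both lay higher in irradiated arrays, at 1.15 ± 0.73 and 1.33 ± 0.66 (limma adjusted p = 0.976 for both).

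A filter on signal would keep only part of the members. At the 40th percentile of all probe sets, a level of 4.04, 37 of 185 members pass, or 20%. Just inside lie Ir7g at 4.05 and Or74a at 4.09, and just outside Gr89a at 4.01 and a probe set of Or46a at 3.99. Gr89a, with a difference of 2.14 at 60 min, is thus among the first left out. Of these 37 members, 18 lay above the brightest array control.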

How the data were processed

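The values are array intensities on a linear scale that the authors deposited in 1 table. MAS5 produced them, according to the submitters' processing notes. Its version, the scaling and any genome build are not given in the sources used here. With 2% trimmed from both ends, every array had a mean between 500.01 and 500.02, so no further scaling was applied. Scanner files and detection calls were not used here. Names came from the platform annotation. Of 13543 symbols looked up by Entrez identifier in RefSeq (assembly Release 6) 0 changed, and all 185 member symbols were found. No coordinates or sequences are printed.

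Values were taken as log2(intensity + 1) and fitted in R 4.3.3 by limma 3.58.1, using lmFit and then eBayes with a trend in intensity, over 18769 probe sets and 15 arrays in 5 groups, two-sided, with Benjamini-Hochberg adjustment over all probe sets and a threshold of 0.05. Letters were tested in a second fit with group and letter. SD within groups is the residual SD of a probe set. The number of arrays limits the precision. The replicates are called biological in the labels.

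Pairing by letter was checked on the probe sets at or above the 40th percentile, by correlating deviations from group means with those of the controls. For A these were 0.465, 0.217, 0.484 and 0.501 at 5, 30, 60 and 90 min, for B 0.402, 0.375, 0.266 and -0.299, and for C 0.665, 0.629, 0.607 and 0.311. By this check letters paired the 5, 30 and 60 min groups with the controls, and not the 90 min group, where B lay below the minimum of 0.1 while A and C lay above it. The main fit used no pairing for any group, so its SE, SD and intervals include differences between letters. With the letter as a block, an alternative, the median SD over all probe sets was 0.793 against 0.937 without it. Over the members alone the correlations of this pairing check lay between -0.0884 and 0.144.

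The text names receptors of known role, the 5 brightest and 3 dimmest probe sets per family, the 3 smallest p per direction and comparison, the 3 largest and smallest SD per family, 2 members either side of the filter, and genes with several probe sets; others were named after their values were seen. The members and the 9 gene lists were chosen with earlier results of these data known. Alternatives were the letter as a replicate block, a pseudocount of 16, quantile normalization, the filter, no intensity trend, each array left out and, added after seeing the data, the spike-in level as a covariate. The fit was tested on simulated data with independent errors and with letter differences only in some bright probe sets, unlike the arrays here. That check asked for unbiased differences and few false calls, and not for recovery of changed members. Not analysed here were list genes not matched by symbol, among them h, run, sog, rho, nos, pgc and Syt1.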

Additional observations from a re-analysis of the deposited data

How the results depend on the processing

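The count of probe sets and of chemoreceptors called between groups was 0 in limma under every alternative, including the replicate block; with the block, 16 members (8.65%) had an unadjusted p under 0.05 in the mean of the irradiated groups, against 10.4% of all probe sets, and the median SD was 1.03 for members and 0.793 for all. Members called between letters numbered 4, with 7 when the variance prior had no intensity trend and 3 to 11 when 1 array was left out (7 without control C or 30 min C, 9 without 90 min C and 11 without 90 min B), while over all probe sets the count was 5123, with 3738 and 3889 to 6188 in the same fits. The adjusted p of Ir76a between letters was 0.0836 with quantile normalization and reached 0.059 without an A array, and that of Gr47a reached 0.078 without control B. The filter at the 40th percentile leaves 37 members. With it the median difference was -0.11 at 5 min, -0.028 at 30 min and -0.11 in the mean, but stayed positive at 60 and 90 min. The median level with this filter was 4.46 and the 95th percentile 5.75, by construction. At 5 min, leaving out 1 array moved the median between -0.046 and 0.41, lowest without 5 min C. With a pseudocount of 16 the median level was 4.64, the 95th percentile 5.45 and the median SD 0.438, as the larger addend raises and compresses low values. The other 653 values kept their direction and their side of the threshold or stayed within the spread of array medians. Near background, a difference under about 1.81 at a single time was within the interval of the median member.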

Other observations

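Other chemosensory genes were less uniformly dim than the receptors. Of 66 measured genes of the chemosensory accessory list, which holds the odorant-binding proteins, CheA and CheB genes, Snmp genes and ppk channels, 56 lay at or below 4.74 and the median level was 3.37. The 10 above it were Obp99a at 11.9, Obp99c at 7.80, Obp56a at 7.58, Obp44a at 7.24, Obp83g at 7.19, ppk29 at 6.46, Obp56d at 6.04, Obp19d at 5.81, Obp18a at 5.52 and Obp28a at 5.32. Obp99a, a secreted binding protein, ran from an intensity of 481 to 18472.4 over the 15 arrays and differed between letters (limma adjusted p = 0.000116). In the mean of the irradiated groups its difference was 1.48 ± 0.94 (SE), and 0 of the 66 genes passed at any time. lush, needed to sense a male pheromone, was at 2.43.

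The measured genes of the adult eye were as dim as the chemoreceptors, but only 4 of the 12 listed were matched by symbol. The genes ninaE, Rh2, Rh3, Rh4, Rh5, Rh6, ninaC and norpA were not. The 4 measured photoreceptor genes, trp at 2.76 among them, had a median level of 3.10 and none lay above 4.74. The 9 measured genes of parental tissues (yolk proteins, seminal proteins and chorion) had a median of 3.99, with 1 above 4.74. The 8 measured hemocyte genes had a median of 6.52 with 5 above 4.74. Medians were 8.74 for the 4 late embryo muscle genes and 14.7 for 37 ribosomal protein genes. No gene of these lists was called between groups at any time.

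5 further probe sets carry a chemoreceptor symbol among several symbols and were not counted as members. The pair Or19a and Or19b had a level of 2.82, Gr64b and Gr64c 3.78 and 2.30, and Gr64d and Gr64e 2.68. The probe set shared by Ir75d and COX6AL2, a mitochondrial enzyme subunit, had a level of 5.25, with intensities from 25.6 to 53.7 and an SD within groups of 0.28.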
